A study of Homo sapiens with 6 samples.

Results

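The epidermal growth factor (EGF) family is a set of ligands that are made as membrane-anchored precursors, cut from the cell surface and bound by the ERBB receptor tyrosine kinases. The 10 genes described here were taken by name from the 27009 genes of the deposited RNA sequencing table. They are 7 ligands, AREG, EREG, HBEGF, TGFA, BTC, NRG1 and NRG4, and 3 receptors, EGFR, ERBB2 and ERBB3. The 6 libraries are labelled as Hep3B, a human hepatocellular carcinoma cell line, in which the endogenous PD-L1 gene (CD274) had been knocked out in both groups. In 3 libraries the knockout cells carried the empty pCDH-CMV-Puro lentiviral vector (vector replicates 1 to 3, C1 to C3 in the labels). The other 3 are labelled as carrying, in the same backbone behind the CMV promoter, nPD-L1, a PD-L1 mutant designed to stay in the nucleus (nPD-L1 replicates 1 to 3, A1 to A3). Both were stable cells made by lentiviral infection and drug selection. The study calls the replicates independent sequenced samples, but neither it nor the labels say whether a line was 1 clone or whether the replicates were separate cultures, so that p-values measure only the spread between these samples, which may be technical. The comparison asked which genes differed when nPD-L1 was put back into cells without their own PD-L1.

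AREG, EREG, HBEGF, TGFA and BTC bind EGFR, and EREG, HBEGF and BTC also bind ERBB4. The neuregulins NRG1 and NRG4 bind ERBB4, and NRG1 also binds ERBB3. A bound receptor pairs with a second one, often ERBB2, which has no known ligand of its own, and the pair signals through RAS and the kinase ERK and through PI3-kinase. In liver, EGFR signaling is known for its part in regeneration, and AREG is known as a gene that is induced in injured liver and in hepatocellular carcinoma.

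The 3 ligands that passed the test below are shown with the 250 bases before their RefSeq start sites (GRCh38.p14), 5′ to 3′ on the strand of the gene. The windows are AREG at chr4:74444886-74445135 on the plus strand, EREG at chr4:74364895-74365144 on the plus strand and HBEGF at chr5:140346604-140346853 on the minus strand. Capitals mark every match, on either strand, to the cyclic AMP response element TGACGTCA, the AP-1 motif TGANTCA, the GC box GGGCGG, the TEAD motif GGAATG and the TATA box TATAAA.
AREG: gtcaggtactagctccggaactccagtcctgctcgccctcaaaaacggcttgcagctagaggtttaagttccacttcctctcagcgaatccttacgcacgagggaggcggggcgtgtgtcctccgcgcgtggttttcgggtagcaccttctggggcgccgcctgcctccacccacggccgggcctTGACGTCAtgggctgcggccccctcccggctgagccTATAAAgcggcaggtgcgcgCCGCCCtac
EREG: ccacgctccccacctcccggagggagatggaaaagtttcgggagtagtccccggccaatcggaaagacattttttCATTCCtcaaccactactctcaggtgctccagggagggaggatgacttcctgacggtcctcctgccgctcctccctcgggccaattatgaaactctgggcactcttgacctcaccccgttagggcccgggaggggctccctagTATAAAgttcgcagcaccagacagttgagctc
HBEGF: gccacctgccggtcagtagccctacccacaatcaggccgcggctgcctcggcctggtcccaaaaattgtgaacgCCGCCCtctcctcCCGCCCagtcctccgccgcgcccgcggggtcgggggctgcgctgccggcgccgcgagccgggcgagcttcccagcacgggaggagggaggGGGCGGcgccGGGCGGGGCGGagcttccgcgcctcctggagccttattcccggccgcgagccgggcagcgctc

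The AREG window held the cyclic AMP response element 65 bases before the start site, a TATA box at 29 bases and a GC box at 9 bases. The EREG window held a TEAD motif at 175 bases and a TATA box at 32 bases. The HBEGF window had no TATA box and held 5 GC boxes, at 176, 163, 73, 63 and 58 bases, the last pair sharing 1 base. GC content was 65.2% for AREG, 58% for EREG and 76.4% for HBEGF, beside a median of 58% over all 35116 windows. Of those windows, 1.65% held the cyclic AMP response element, 10.7% the TATA box, 42.6% the GC box, 11.9% the TEAD motif and 6.57% the AP-1 motif. These matches describe letters in a window and say nothing of binding. Of the 10 genes, 8 had a window in the RefSeq table, and ERBB3 and NRG1 did not. Among genes not called, the NRG4 window held a TATA box and a TEAD motif. A TGFA window held 3 GC boxes and no TATA box, and its other window held none of the motifs. An EGFR window held 2 TATA boxes, 2 AP-1 motifs and 1 TEAD motif, and its other window held 2 GC boxes. The ERBB2 window held 1 AP-1 motif, and the BTC window held none of the motifs. Any relation of these letters to direction was not tested.

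The deposited values are reads on each gene divided by a factor for the library, called scaled reads here. Dividing them by the value of 1 read gave back 17427519 to 22253295 whole reads per library, so that counting error was small for every gene with over 100 reads. Vector replicates 2 and 3 stood furthest apart, with 1281 tested genes over 2-fold apart beside 549 to 883 for the other pairs within a group, and their log2 ratio was related to gene length across genes (Spearman's rho -0.323, genes not being independent replicates). CD274 read 28.3, 38.4 and 47.8 scaled reads in the vector libraries, against 16.8, 19.2 and 30.9 in the others, a log2 fold change of -0.76 ± 0.34 (SE, n = 3 and 3, limma adjusted p = 0.338). It was thus not higher in the libraries labelled nPD-L1, and every direction below rests on the labels. The edited site is not given in the sources used here, so that reads on CD274 do not check the knockout. The labelled cell type was checked on 13 hepatocyte and hepatoma markers, of which 11 had a row. AFP and GPC3 had none. ALB, APOA1, APOA2, APOB, TTR and TF, 6 secreted liver proteins, were at or under 2.89 scaled reads in every library. Other secreted liver proteins were present, FGB (a fibrinogen chain) at means of 1240 ± 290 and 1057 ± 62.5 scaled reads in the vector and nPD-L1 groups (SD, n = 3) and SERPINA1 at low means of 20.6 and 19.1, and the epithelial keratins KRT8 and KRT18 made up most of a summed level of 51706 to 64511 in the vector libraries, against 47353 to 60374 in the others. HNF4A, a liver transcription factor, averaged 12.2 ± 6.52 and 45.5 ± 10.2 scaled reads (SD, n = 3, adjusted p = 0.0232, and 0.0633 to 0.134 without any 1 of the libraries labelled nPD-L1). These levels do not establish the labelled cell line, and its identity was not tested further. Of 11 markers of blood, endothelial and stromal cells, 7 had a row. Their sum was 166 to 259 scaled reads in the vector libraries, against 598 to 651 in the others, almost all of that difference in COL1A1 (65.3 ± 16.5 and 466 ± 21.1, SD, n = 3, limma adjusted p = 8.0e-06), and their part in the results below was not tested. PTPRC, PECAM1, VWF and DCN, which mark leukocytes, endothelium and fibroblasts, averaged at most 2.08 scaled reads in either group. CD14 averaged 6.18 and 8.78, and LUM, also a fibroblast marker, averaged 131 and 137 in the vector and nPD-L1 groups. In bulk RNA, fewer cells of a type and less RNA per cell cannot be told apart.

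AREG and EREG were lower and HBEGF was higher in the libraries labelled nPD-L1, while the other 4 ligands and all 3 receptors did not pass the test. The test was limma on log2(scaled reads + 1) over the 15076 genes with at least 10 scaled reads in at least 3 libraries, with Benjamini-Hochberg adjustment and a call at an adjusted p under 0.05. All 10 genes passed that filter. Among them 3 were called, 1 higher and 2 lower, beside 4.96% of all genes tested that were called in either direction, 4.04% higher and 0.922% lower (609 and 139 genes). The 10 genes were chosen with earlier results of these data known, so that their count is only a description. The median log2 fold change was 0.09 over the 10 genes and -0.02 over all genes tested. The same 3 genes were called by edgeR and by DESeq2 on the recovered reads.

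**Figure D1:**
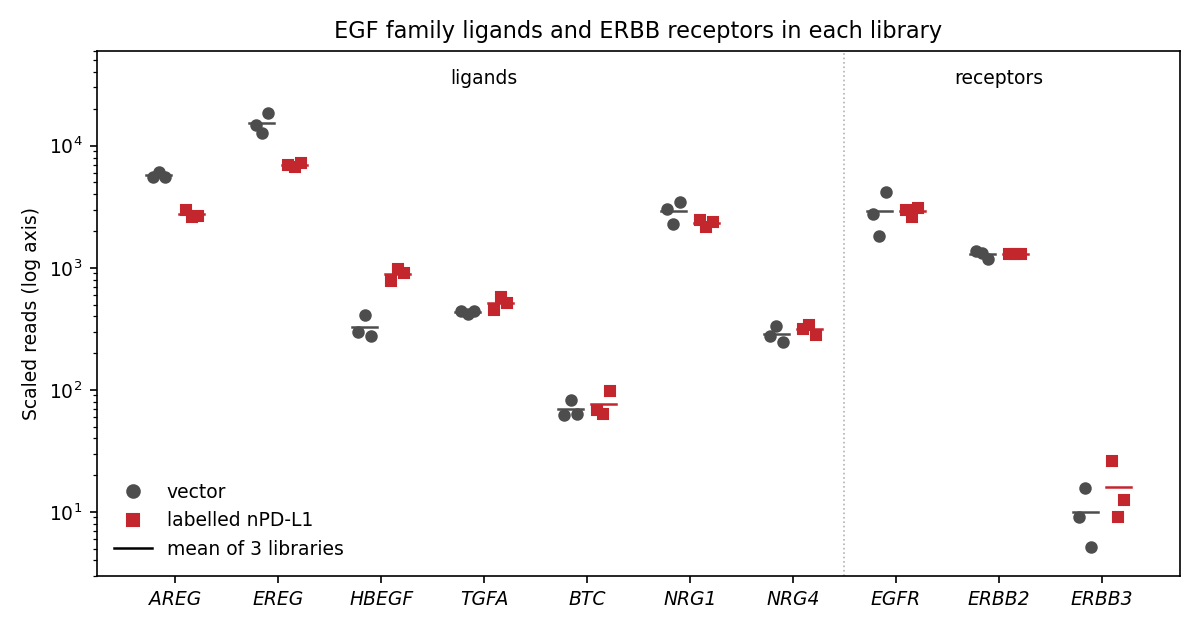
Scaled reads (log axis) of the 10 genes in each library, with circles for the 3 vector libraries, squares for the 3 libraries labelled nPD-L1 and bars for the group means. AREG and EREG sit lower and HBEGF higher in the nPD-L1 libraries with no overlap, and the EGFR vector libraries spread from 1837 to 4170.

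AREG (amphiregulin, ENSG00000109321, chr4:74445134-74455009 on the plus strand) is a low-affinity EGFR ligand that ADAM17 releases from the cell. It read 5551, 6136 and 5492 scaled reads in vector replicates 1 to 3 and 2967, 2588 and 2665 in nPD-L1 replicates 1 to 3. Every vector library lay above every library labelled nPD-L1. The means were 5727 ± 356 and 2740 ± 200 (SD, n = 3), 2.09-fold lower. The log2 fold change was -1.06 ± 0.10 (SE; 95% interval -1.28 to -0.84) with a limma adjusted p of 9.8e-05. In the vector group the mean lay above 96.8% of the genes tested.

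EREG (epiregulin, ENSG00000124882, chr4:74365143-74388751 on the plus strand) binds EGFR and ERBB4 and is known to form less stable EGFR pairs than EGF itself. It read 14687, 12733 and 18558 scaled reads in the vector libraries, against 7004, 6699 and 7239 in those labelled nPD-L1. The groups did not overlap, and the vector libraries spread more widely, 1.46-fold from lowest to highest against 1.08-fold. The means were 15326 ± 2965 and 6980 ± 271 (SD, n = 3), 2.20-fold lower. The log2 fold change was -1.12 ± 0.14 (SE; 95% interval -1.42 to -0.82) with a limma adjusted p of 0.00065. With 99.1% of tested genes below it in the vector group, EREG had more scaled reads than any of the other 9 genes.

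HBEGF (heparin-binding EGF-like growth factor, ENSG00000113070, chr5:140332843-140346631 on the minus strand) binds EGFR and ERBB4, and its uncut precursor is known as the diphtheria toxin receptor. It read 298, 409 and 276 scaled reads in the vector libraries, against 777, 986 and 910 in the libraries labelled nPD-L1. Each of the latter lay above each vector library. The means were 328 ± 71.1 and 891 ± 106 (SD, n = 3), 2.72-fold higher. The log2 fold change was 1.45 ± 0.16 (SE; 95% interval 1.10 to 1.81) with a limma adjusted p of 0.00032.

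AREG, EREG and HBEGF kept their direction and their call under all 18 other settings and tools, with adjusted p-values of at most 0.0021, 0.011 and 0.0056. Their log2 fold changes with any 1 library left out ran from -1.12 to -1.01, from -1.24 to -0.97 and from 1.34 to 1.63.

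TGFA (transforming growth factor alpha, chr2:70447280-70554193 on the minus strand), a high-affinity EGFR ligand, read 442, 419 and 440 scaled reads in the vector libraries, against 449, 578 and 514 in the other group. The groups did not overlap, but by a narrow margin, and TGFA was not called (log2 fold change 0.24 ± 0.13, SE, 95% interval -0.04 to 0.51, limma adjusted p = 0.457). With AREG and EREG lower and HBEGF and TGFA higher, 4 of the 10 genes had groups that did not overlap, beside 20.6% of all genes tested.

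BTC (betacellulin, chr4:74744759-74794686 on the minus strand), a ligand of EGFR and ERBB4, read 62.6, 82.4 and 63.4 scaled reads in the vector libraries, against 68.9, 63.7 and 97.4 in the others. The groups overlapped. The log2 fold change was 0.13 ± 0.23 (SE, 95% interval -0.39 to 0.65, limma adjusted p = 0.851), and it was -0.06 without nPD-L1 replicate 3, the highest of the 6 libraries.

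NRG4 (neuregulin 4, chr15:75935969-76059795 on the minus strand), an ERBB4 ligand, read 278, 333 and 247 scaled reads in the vector libraries, against 314, 339 and 284 in the others. The groups overlapped (log2 fold change 0.13 ± 0.15, SE, 95% interval -0.20 to 0.46, limma adjusted p = 0.746). NRG4 shares its span with FBXO22 on the other strand, which held 1712 to 2019 scaled reads. Whether the counting used strand is not given in the sources used here, so NRG4 is uncertain to that extent.

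NRG1 (neuregulin 1, chromosome 8, plus strand), the main ligand of ERBB3, read 3012, 2272 and 3458 scaled reads in the vector libraries, against 2456, 2173 and 2370 in the others. Vector replicate 2 lay within the range of the libraries labelled nPD-L1, and the other vector libraries lay above it. The means were 2914 ± 599 and 2333 ± 145 (SD, n = 3), and NRG1 was not called (log2 fold change -0.30 ± 0.14, SE, 95% interval -0.62 to 0.02, limma adjusted p = 0.388). Without vector replicate 2 it was called lower (-0.47, adjusted p = 0.0044). Its exons sum to 11328 bases, and once each library's trend with gene length had been removed it was also called lower (-0.44, adjusted p = 0.034), an alternative chosen after seeing the data. Whether NRG1 was called therefore depended on 1 library and on that correction.

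**Figure D2:**
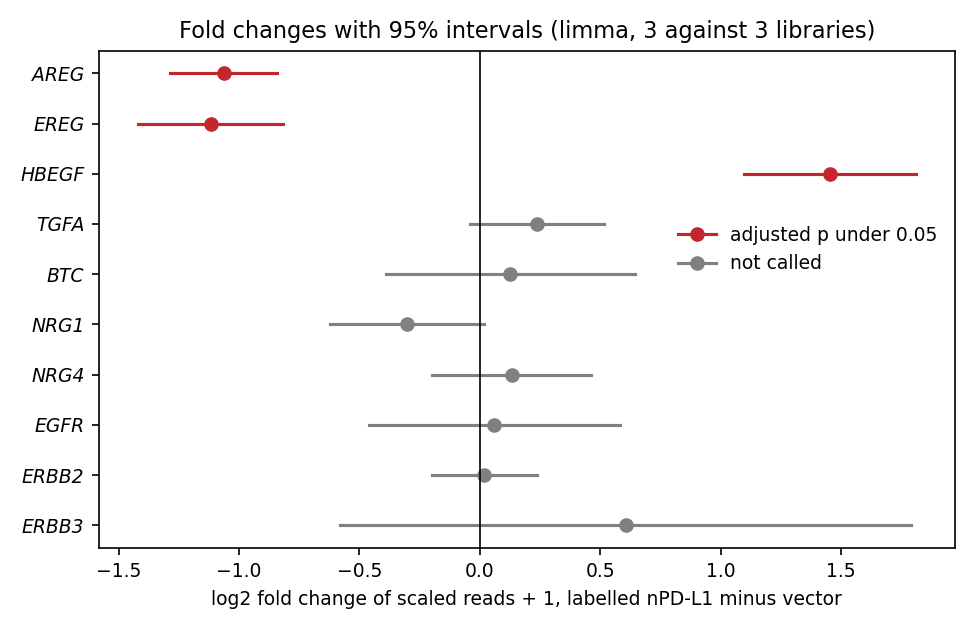
Log2 fold change of scaled reads + 1, libraries labelled nPD-L1 minus vector (limma, n = 3 and 3), with 95% intervals as lines. AREG at -1.06, EREG at -1.12 and HBEGF at 1.45 (red) passed an adjusted p of 0.05, and the intervals of the other 7 genes include 0.

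None of the 3 receptors passed the test, with 0 at an unadjusted p under 0.05 in limma and 0 called by edgeR or DESeq2. EGFR (ERBB1, chr7:55019021-55211628 on the plus strand), the receptor of AREG, EREG, HBEGF, TGFA and BTC, read 2771, 1837 and 4170 scaled reads in the vector libraries, against 2990, 2614 and 3084 in those labelled nPD-L1. The vector libraries spread 2.27-fold from lowest to highest and covered the whole range of the other group. The log2 fold change was 0.06 ± 0.23 (SE, 95% interval -0.46 to 0.58, limma adjusted p = 0.931). Any difference within those bounds remained compatible with these libraries. The sign of the EGFR fold change was not settled. It was -0.23 without vector replicate 2 and -0.08 after the trend with gene length had been removed, with neither called. EGFR has 12521 bases of exons, the longest of the 10 genes, and its antisense gene EGFR-AS1 held at most 3.39 scaled reads.

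ERBB2 (HER2, chr17:39687914-39730426 on the plus strand), the partner receptor without a ligand, read 1362, 1327 and 1170 scaled reads in the vector libraries, against 1298, 1299 and 1305 in the others. Its interval was the narrowest of the 3 receptors (log2 fold change 0.02 ± 0.10, SE, 95% interval -0.20 to 0.24, limma adjusted p = 0.951). It was -0.05 without vector replicate 3 and -0.11 after the trend with gene length had been removed, with neither called. The genes MIEN1 and PGAP3 overlap its span on the other strand and held 631 to 1051 and 248 to 355 scaled reads. As for NRG4, whether the counting used strand is not given, so ERBB2 is uncertain to that extent.

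ERBB3 (HER3, chr12:56076799-56103505 on the plus strand), a receptor for NRG1 with little kinase activity, was near the detection limit. It had 9, 14 and 5 recovered reads in the vector libraries, against 31, 9 and 13 in the libraries labelled nPD-L1, or 9.08, 15.8 and 5.20 and 26.1, 9.10 and 12.5 scaled reads. The groups overlapped, and the 95% interval of its log2 fold change was wide (0.61 ± 0.54, SE, -0.58 to 1.79, limma adjusted p = 0.681). It passed the filter in exactly 3 libraries.

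Levels were compared between genes as scaled reads per kb of exons. That length is the union of all annotated exons of a gene and not the length of the transcripts expressed. The order of the genes and the ligand sums and shares below depend on it. In the vector group the order was AREG (3475 ± 216, SD, n = 3), EREG (2681 ± 519), NRG1 (257 ± 52.8), EGFR (234 ± 93.8), ERBB2 (125 ± 9.88), HBEGF (109 ± 23.6), TGFA (87.4 ± 2.55), NRG4 (56.9 ± 8.65), BTC (24.7 ± 3.99) and ERBB3 (1.11 ± 0.594). In that order the libraries of NRG1 and EGFR, and those of ERBB2 and HBEGF, overlapped, and those of the other neighbours did not. In the nPD-L1 group, AREG (1663 ± 122) and EREG (1221 ± 47.4) were still first, and HBEGF (295 ± 35.0) moved from place 6 to place 3, ahead of EGFR (231 ± 19.9), NRG1 (206 ± 12.8), ERBB2 (126 ± 0.374), TGFA (103 ± 12.97), NRG4 (62.1 ± 5.50), BTC (27.2 ± 6.45) and ERBB3 (1.76 ± 0.991). Only the neighbours EGFR and NRG1 overlapped there.

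The 7 ligands together summed to 6469, 6466 and 7136 scaled reads per kb in the vector libraries, against 3677, 3467 and 3589 in the libraries labelled nPD-L1. AREG and EREG made up most of that sum in every library. AREG took 52.1 ± 5.44% of it in the vector group and 46.4 ± 2.19% in the other (SD, n = 3), and EREG 39.9 ± 5.53% and 34.1 ± 1.03%. HBEGF took 1.28% to 2.09% in the vector libraries, against 7.004% to 9.42% in the others, and AREG exceeded HBEGF per kb 32.7 ± 4.63 times in the first group and 5.72 ± 1.13 times in the second. The ratio of EREG to AREG was 0.778 ± 0.188 and 0.736 ± 0.0519, a difference smaller than the spread between the vector libraries. These sums and ratios follow from the values already given and were not tested.

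The 3 receptors together summed to 359 ± 85.1 scaled reads per kb in the vector group and 359 ± 20.6 in the other (SD, n = 3). Most of the spread in the first came from EGFR. RNA levels of a ligand say nothing here of the protein or of how much of it is cut from the membrane.

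**Figure D3:**
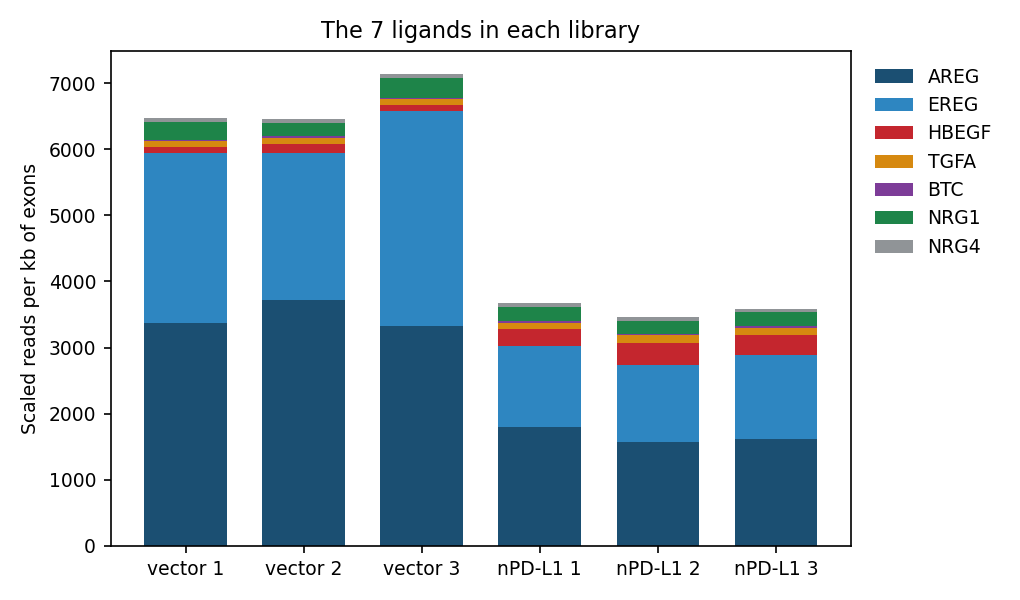
Scaled reads per kb of exons (stacked bars from 0) of the 7 ligands in each of the 6 libraries, colored by gene. The 3 vector bars reach 6466 to 7136 and the 3 bars of the libraries labelled nPD-L1 reach 3467 to 3677, with a wider HBEGF band in the latter.

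Of the family members outside the 10 genes, only EGF could be tested. It read 39.4, 55.3 and 31.2 scaled reads in the vector libraries, against 35.3, 32.4 and 21.2 in the others and was not called (log2 fold change -0.48 ± 0.32, SE, limma adjusted p = 0.576). EPGN, NRG2, NRG3 and ERBB4 did not pass the filter, with at most 4.82, 5.04, 1.68 and 3.39 scaled reads in any library. ERBB4, a receptor for NRG4, NRG1, HBEGF, EREG and BTC, was thus at or near 0 in both groups at this depth.

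AREG and EREG lie next to each other on chromosome 4, with 56.4 kb between the end of EREG and the start of AREG, in a stretch that also holds genes for CXC chemokines. Within 1 Mb of the AREG start the table had 17 genes, of which 14 were tested. AREG and EREG were called lower, and so were CXCL3, CXCL2 and CXCL5, 3 of the 11 tested genes outside the family. These calls stand beside 0.922% of all genes tested that were called lower. Of the 14 genes, 9 were not called, among them BTC 300 kb on the far side of AREG.

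CXCL3, CXCL2 and CXCL5 encode chemokines that attract neutrophils through the receptor CXCR2. CXCL3 read 1120, 1272 and 826 scaled reads in the vector libraries, against 236, 244 and 243 in the others (log2 fold change -2.13 ± 0.15, SE, limma adjusted p = 1.5e-05). CXCL2 read 1223, 1594 and 1091 and then 340, 352 and 372 (-1.86 ± 0.14, limma adjusted p = 2.3e-05). Both had log2 fold changes larger in size than those of AREG and EREG, a difference that was not tested, and no overlap between groups. CXCL5 read 7486, 7946 and 8181 and then 5534, 4974 and 5555 (-0.56 ± 0.10, limma adjusted p = 0.0067, and 0.068 without nPD-L1 replicate 2).

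CXCL1 and CXCL8, chemokines of the same kind, had log2 fold changes of -0.75 ± 0.34 and -0.33 ± 0.23 (SE) and were not called (limma adjusted p = 0.382 and 0.595). Both were called lower without vector replicate 3, their lowest vector library (-1.15, adjusted p = 0.0013, and -0.63, adjusted p = 0.0194). MTHFD2L, a gene of mitochondrial folate metabolism that lies between the chemokine genes and EREG, had a log2 fold change of -0.05 ± 0.14 (adjusted p = 0.905). RASSF6 (0.19), PF4 (-0.32), AC239584.1 (-1.21), PARM1 (-0.02) and LINC02562 (-0.24) were also not called, with adjusted p-values of 0.496 to 0.981. The sign of RASSF6 turned without vector replicate 2 (-0.13), and that of PARM1, a difference close to 0, turned without vector replicate 2 or nPD-L1 replicates 1 or 3 and in edgeR (0.02 to 0.11 without a library).

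**Figure D4:**
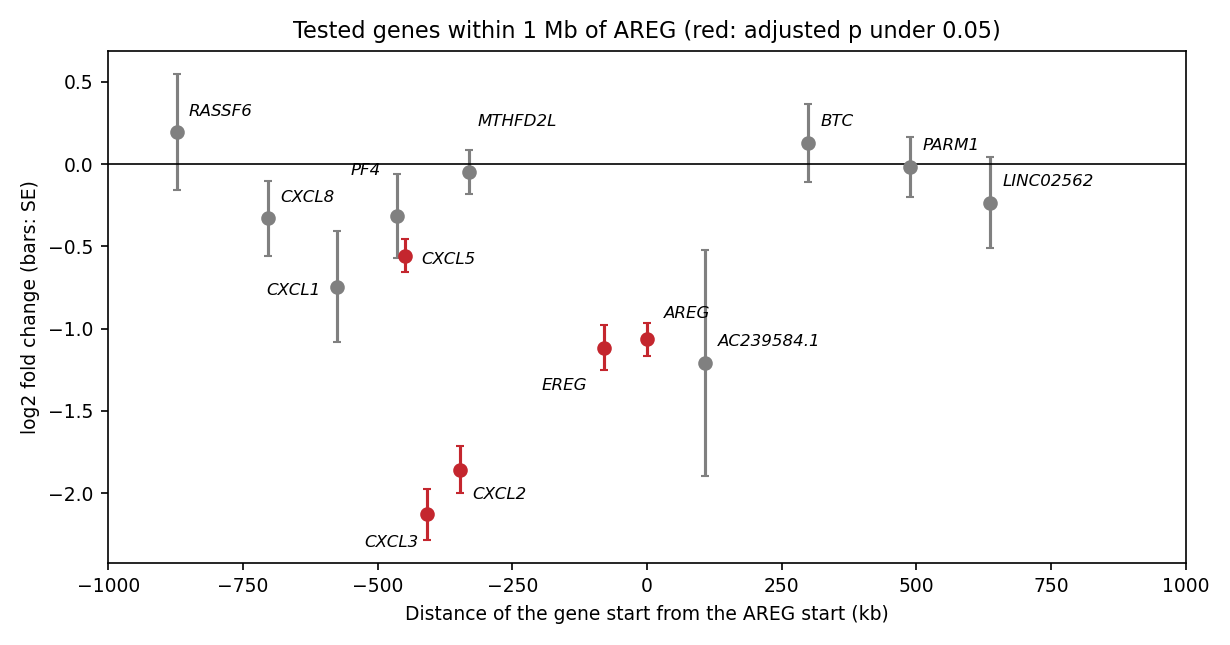
Log2 fold change (points, bars ± SE, libraries labelled nPD-L1 minus vector) of the 14 tested genes against the distance in kb of their start from the AREG start. The 5 red points (adjusted p under 0.05) are AREG, EREG, CXCL2, CXCL3 and CXCL5, and MTHFD2L at -0.05 and BTC at 0.13 lie near 0.

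Among the 10724 tested genes whose mean reached 100 scaled reads, the 5 whose log2 values followed AREG most closely over the 6 libraries were ING1, TESMIN, GADD45A, CSTF1 and PDK4 (Pearson's r 0.992 to 0.996). The 6 points share their libraries and fall into the 2 groups, which set most of r, so the values are a description. PDK4, a kinase that inhibits pyruvate dehydrogenase, read 7769, 7937 and 7827 scaled reads in the vector libraries, against 1490, 1320 and 1500 in the others (log2 fold change -2.45 ± 0.09, SE, limma adjusted p = 2.3e-07). GADD45A, a gene induced by DNA damage and growth arrest, fell by 0.83 on the log2 scale (adjusted p = 0.0010), and TESMIN by 0.99 (adjusted p = 0.0035). ING1, a chromatin reader of the inhibitor of growth family, fell by 0.57 (adjusted p = 0.0242, and 0.0613 to 0.122 without vector replicate 1 or any 1 of the libraries labelled nPD-L1). CSTF1, a subunit of the factor that cleaves the 3′ ends of messenger RNA, had a log2 fold change of -0.29 and was not called (adjusted p = 0.197). EREG came at place 134 in that order (r = 0.930), and HBEGF at place 10402 (r = -0.947).

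The ligands are released by proteases, and their signal is passed on and damped by known sets of proteins. The counts for the 4 lists that follow stand beside the 4.96% of all genes tested that were called. These lists, too, were chosen with earlier results of these data known, so that their counts are only a description. Of 9 genes for ligand shedding and trafficking, all tested, 1 was called, FRMD8, which was higher. FRMD8, known as iTAP, holds the iRhom and ADAM17 complex at the cell surface. It read 1333, 1530 and 1323 scaled reads in the vector libraries, against 3400, 4030 and 3420 in the others (log2 fold change 1.37 ± 0.11, SE, limma adjusted p = 3.0e-05). It kept its call under every other setting and tool. ADAM17 itself, the main sheddase of AREG, EREG, HBEGF and TGFA, averaged 940 ± 126 and 1176 ± 76.5 scaled reads (SD, n = 3) and was not called (log2 fold change 0.33, adjusted p = 0.212). The median over the 9 genes was 0.15, beside -0.02 over all genes tested.

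Of 20 inhibitors of ERBB receptors or of the RAS and ERK signal behind them, 19 were tested. SPRED2 was called higher, SPRY1 and LRIG3 were called lower, and 16 were not called (median log2 fold change 0.06). SPRY1, a Sprouty protein that damps receptor tyrosine kinase signaling, read 233, 265 and 186 scaled reads in the vector libraries, against 37.8, 75.9 and 54.0 in the others (log2 fold change -2.05 ± 0.26, SE, limma adjusted p = 0.00077). LRIG3, a transmembrane protein of a family that acts on ERBB receptors, averaged 525 ± 84.0 and 343 ± 12.1 (SD, n = 3, -0.60, adjusted p = 0.0287). That call was lost with upper-quartile scaling (0.0630) and without any 1 library other than vector replicate 2 (0.0714 to 0.134). SPRED2, an inhibitor of RAF activation, averaged 1408 ± 149 and 2005 ± 75.8 (0.51, adjusted p = 0.0167, and 0.0725 to 0.109 without vector replicate 1 or any 1 of the libraries labelled nPD-L1). CBL, a ubiquitin ligase of EGFR, had the largest difference among those not called (0.37, adjusted p = 0.509). ERRFI1 (MIG6), a direct inhibitor of the EGFR kinase, was not called either (0.09, adjusted p = 0.753).

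Of 27 adaptors and kinases downstream, 26 were tested and 1 was called, a share near the 4.96% of all genes tested (median log2 fold change 0.09). Of the 26 log2 fold changes, 18 were above 0 and 8 below. At an unadjusted limma p under 0.05 there were 9 of the 26, beside 1436 genes higher and 710 lower among all 15076 tested. The gene called was SOS2, an exchange factor that activates RAS. It read 440, 492 and 478 scaled reads in the vector libraries, against 762, 690 and 846 in the others (log2 fold change 0.70 ± 0.12, SE, limma adjusted p = 0.0050). GAB1, a docking protein for PI3-kinase, averaged 29.6 ± 9.99 and 53.4 ± 12.3 and was not called (0.86, adjusted p = 0.230). PIK3R1, the regulatory subunit of PI3-kinase, was at -0.53 in the main fit and not called (adjusted p = 0.137). It was called lower without vector replicate 2 (-0.70, adjusted p = 0.0038). With all libraries it was also called lower with a block for replicate number (0.036), with the gene length trend removed (0.014) and with both (0.0026). Leaving out vector replicate 3 raised the number called higher to 3. PIK3R1, PIK3CA, SOS1 and CCND1 stand in heatmaps that the study drew from these samples, so they are no independent evidence of a direction.

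The ERK output list holds 10 genes known to be transcribed when ERK is active, and all were tested. DUSP4, DUSP6, PHLDA1 and SPRY2 were called lower, EPHA2 was called higher, and 5 were not called (median -0.09). DUSP4 and DUSP6, phosphatases that switch off MAP kinases and ERK, were lower by the most. DUSP4 read 5102, 5532 and 4426 scaled reads in the vector libraries, against 2202, 2480 and 2142 in the others (log2 fold change -1.14 ± 0.11, SE, limma adjusted p = 0.00014). DUSP6 read 632, 750 and 500 and then 311, 363 and 315 (-0.91 ± 0.16, adjusted p = 0.0057, and 0.0509 without nPD-L1 replicate 1).

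PHLDA1, a pleckstrin-homology-like protein, averaged 6759 ± 523 and 4189 ± 295 scaled reads (SD, n = 3, log2 fold change -0.69, limma adjusted p = 0.0025). SPRY2, another Sprouty inhibitor, stood at the threshold (-0.53, adjusted p = 0.0479) and lost its call in 9 of 18 alternatives, with adjusted p-values of 0.0501 to 0.227. EPHA2, a receptor of the ephrin family, averaged 3242 ± 501 and 5049 ± 377 (0.65, adjusted p = 0.0124, and 0.0885 and 0.0584 without nPD-L1 replicate 1 or 3). Of the 5 not called, EPHA4 had the largest difference (0.45, adjusted p = 0.392), and ETV4 (-0.08), ETV5 (-0.09) and SPRY4 (0.22), also targets of ERK, had adjusted p-values of 0.472 to 0.774. CCND1, which encodes cyclin D1, was at 0.39 (adjusted p = 0.142). Its adjusted p was 0.0311 without vector replicate 3, 0.0446 without the filter on low values and 0.0356 with the replicate block. Of the 10 genes, 4 were thus called lower and 1 higher, beside 0.922% and 4.04% of all genes tested. Called or not, 6 had log2 fold changes below 0 and 4 above.

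**Figure D5:**
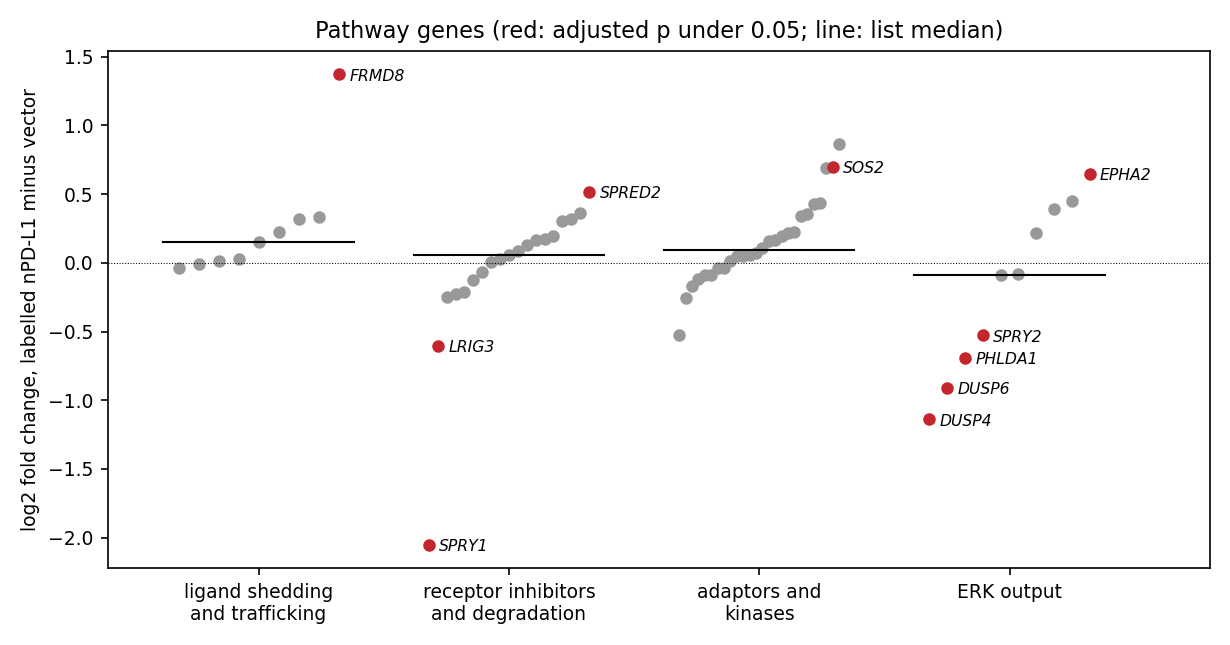
Log2 fold change (libraries labelled nPD-L1 minus vector) of each tested gene in 4 lists of the pathway, with a line at each list's median. Red points passed an adjusted p of 0.05: FRMD8 at 1.37, SPRED2 at 0.51, SOS2 at 0.70 and EPHA2 at 0.65 above 0, and SPRY1 at -2.05, LRIG3, SPRY2, PHLDA1, DUSP6 and DUSP4 below.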

How the data were processed

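TRIzol Plus was used for the RNA of Hep3B PD-L1 knockout cells with the vector or with nPD-L1 (3 libraries each), and NEBNext Ultra libraries were sequenced by Novogene. The submitters' processing notes name CASAVA, HISAT2 2.0.5 and hg38. The counter and its annotation are not given in the sources used here, and gene spans matched GENCODE 29 for 99.98% of genes. The table is titled as raw counts, but the values the authors deposited are a signal, reads divided by a size factor. In each library 100% of nonzero values lay within 0.01 of whole multiples of 1 step (1.07% to 9.94% were whole as deposited), which gave whole reads back. The deposited table also holds the authors' group means and, for vector over nPD-L1, their log2 fold change and p-value, raw and adjusted, none of which were used.

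Each library's group and number came from its title. The 27009 genes were filtered to 15076 with at least 10 scaled reads in at least 3 libraries and tested with limma 3.58.1 (R 4.3.3) on log2(value + 1), two-sided, with trend and robust moderation. Fold changes are on that scale and understate those of low genes. edgeR 4.0.16 and DESeq2 1.42.0 were run on the recovered reads as alternatives, beside other scalings, filters, pseudocounts, a replicate block and fits without each library, and removal of the trend with gene length (loess, span 0.3) was added after seeing the data. The limma fit was tested on simulated data. These held no trend with gene length, so that the simulation does not cover the effect of that trend on calls. The genes named are all 10 members, the other family members, the called genes and the largest uncalled one of each list, tested genes starting within 1 Mb of AREG, the 5 genes most like AREG and the cell type markers. ERRFI1, SPRY4, ETV4, ETV5, CCND1 and PIK3R1 were added after their values were seen. The members and lists were chosen with earlier results of these data known. Error on means is SD over 3 libraries.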

Additional observations from a re-analysis of the deposited data

How the results depend on the processing

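With 3 libraries a group, the spread between libraries limits what can be seen for most of the 10 genes, and depth limits it too for ERBB3, with 5 to 31 reads, and BTC, with 61 to 101. Members called lower were 2, or 3 in the fits that added NRG1 (without vector replicate 2, and at -0.44 with the gene length trend removed, with or without the replicate block), and 1 was called higher throughout. The EGFR log2 fold change turned to -0.0068 in edgeR, -0.015 in DESeq2 and -0.082 with the length trend removed, and that of ERBB2 to -0.11 with the length trend removed, both values the same with the replicate block. PARM1 was at 0.0076 in edgeR. Without 1 library at a time, log2 fold changes ran from -0.056 to 0.26 for BTC, -0.47 to -0.17 for NRG1, -0.23 to 0.36 for EGFR, -0.047 to 0.062 for ERBB2, -0.13 to 0.43 for RASSF6 and -0.18 to 0.11 for PARM1. Over all genes, 609 were called higher and 139 lower. These counts were 306 and 68 with a log2 fold change of at least 1 required as well, 1436 and 710 at an unadjusted p, 927 and 258 with the replicate block, and 350 to 793 and 77 to 244 without 1 library, the lowest in both cases without nPD-L1 replicate 3; with the length trend removed and the replicate block, 361 were lower. Same-numbered libraries deviated together by r = -0.013, 0.229 and 0.131. Vector replicates 2 and 3 correlated best with their own number, and vector replicate 1 did not. These values do not settle whether the numbers pair the libraries, and the main fit did not pair them. The replicate block left AREG, EREG and HBEGF called.

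For the lists, the count of inhibitors called lower was 1 with upper-quartile scaling, and that called higher was 2 with the replicate block. Adaptors called higher were 3 and lower 1 with the replicate block, 1 lower with the length trend removed, and 2 higher and 1 lower with both. ERK output genes called higher were 2 without the filter on low values and with the replicate block. Without 1 library, inhibitors ran from 0 to 1 higher and 1 to 2 lower, adaptors from 1 to 3 higher and 0 to 1 lower, and ERK output genes from 0 to 2 higher and 2 to 4 lower. The cause of these changes was not tested. Limma on the libraries with recovered reads was not run, since reads were recovered in all 6 and it equals the fit reported. ERBB3 has no value under the filter on every library.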
